A study of Mus musculus with 9 samples.

Results

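The cytoplasmic ribosomal protein genes are the genes of the proteins that, together with ribosomal RNA, make up the ribosome of the cytoplasm. They were taken by name from the deposited table: names that start with Rpl or Rps and a digit, and Rplp0, Rplp1, Rplp2 and Rpsa. S6 kinase genes, Rps19bp1, Rps27l and names with -ps, which mark pseudogenes, were dropped. Of 117 names that matched the start of this rule, 20 with -ps, 10 of S6 kinases and 2 others were dropped, which left 85 of the 13499 genes measured. Of these, 53 belong to the large subunit and 32 to the small subunit by name. 7 members carry names that mark them as like another ribosomal protein (Rpl3l, Rpl7l1, Rpl10l, Rpl22l1, Rpl36al, Rpl39l and Rps4l), and 78 do not. 2 members, Rps4l and Rpl37rt, are transcribed processed pseudogenes in the GENCODE annotation, although their names passed the rule.

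Total RNA of mouse embryonic stem (ES) cells, which can form the tissues of the embryo, was sequenced in 9 libraries. All came from C57BL/6 cells grown on gelatine in SR-ES medium with LIF, a cytokine that keeps ES cells undifferentiated. A cytometer divided the cells by GFP-Myc or EYFP fluorescence into High, Medium and Low C-myc populations, with 3 libraries each, described as biological replicates. The labels do not give the reporter behind each sample or whether the cells were of 1 clone. The labels give no treatment or time point.

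The series asks which genes differ with the level of Myc, a transcription factor known to drive cell growth and the making of ribosomes. In the ribosome, the small subunit decodes the mRNA and the large subunit joins amino acids. Most of the members' mRNAs carry a terminal oligopyrimidine (TOP) tract, a C followed by pyrimidines at the very 5′ end, through which the mTORC1 pathway sets their translation. They are short and abundant, and most of the proteins are needed in equal number in the finished particle.

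Values, called signal here, are read counts that the authors normalised to near CPM. Each library held 11114936 to 16755566 recovered reads, and the median member had 9576 to 13653 reads in a library. 2 members, Rpl3l and Rpl39l, had under 100 reads in at least 1 library. Myc signal was 112, 101.1 and 106 in High libraries, 70.0, 65.5 and 65.8 in Medium libraries and 26.3, 27.6 and 24.2 in Low libraries, which checks the labels, since the sort set it. Of the listed ES cell markers, 10 of 10 were measured, and their summed signal was 6593 to 7291 in High, 6154 to 6797 in Medium and 5244 to 6726 in Low; 5 passed as higher in High than in Low and 0 as lower. Of the trophoblast markers, 9 of 12 were measured, with summed signals of 137 to 145 in High, 227 to 247 in Medium and 482 to 590 in Low (Cdx2, Elf5 and Hand1 are not analysed here), and 8 of the 9 passed as lower in High than in Low. The 7 measured of 11 primitive endoderm markers summed to 611 to 648 in High, 551 to 562 in Medium and 354 to 434 in Low (Gata4, Gata6, Sox17 and Pdgfra are not analysed here). Sparc made up most of that sum, with a mean of 428 in High, 343 in Medium and 221 in Low; 4 of the 7 passed as higher in High than in Low, and Dab2 as lower. The 7 measured of 10 fibroblast markers summed to 32.5 to 47.5 in High, 43.2 to 67.5 in Medium and 32.6 to 46.9 in Low (Lum, Pdgfra and Pdgfrb are not analysed here). 1 of these 7 passed as higher in High than in Low and 0 as lower. Over all genes, 13.8% passed as higher in High than in Low and 14.6% as lower. The part of other cell types in the results on the members was not tested. Values are relative to each library, so in these bulk samples fewer cells of a type and less RNA per cell cannot be told apart.

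The sequences around the annotated starts show what many members share outside the rule that chose them. RefSeq start windows on GRCm38.p6 were matched by symbol for 64 of 85 members, in 75 windows, since some genes have several annotated starts. The windows below run 15 bases before the start to 15 bases from it, 5′ to 3′, and capitals mark the longest run of C followed by at least 4 pyrimidines that begins within 10 bases of the start. Rps6 (chr4:86857353-86857382, minus strand), Rpl35 (chr2:39005117-39005146, minus strand), Rps10 (chr17:27635230-27635259, minus strand) and Rpl15 (chr14:18270972-18271001, minus strand) are shown as members with such a tract across the start. Rpl10 (chrX:74270801-74270830, plus strand) and Rpl10l (chr12:66284387-66284416, minus strand) are shown because the values of this pair are compared.
Rps6: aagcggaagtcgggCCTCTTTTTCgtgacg
Rpl35: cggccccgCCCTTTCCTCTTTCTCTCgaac
Rps10: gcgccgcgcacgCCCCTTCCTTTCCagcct
Rpl15: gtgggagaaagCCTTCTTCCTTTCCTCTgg
Rpl10l: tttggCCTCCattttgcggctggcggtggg
Rpl10: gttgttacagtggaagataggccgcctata
The base at the annotated start was a C followed by 4 pyrimidines in 17.3% of the 75 member windows, against 2.51% of all 32851 windows. This includes windows in which a longer run began before the start, as in Rps6, Rpl35, Rps10 and Rpl15. Within 10 bases of the start such a run was found in 53.3% of member windows, against 30.7% of all windows. In the 300 bases from 250 before to 50 after the start, CCGGAA on either strand stood in 46.7% of member windows, against 14.9% of all. CACGTG, which reads the same on both strands and is a known Myc and Max binding sequence, stood in 10.7% of member windows, against 7.15% of all. These are letter matches in annotated windows, and annotated starts can differ from those used in ES cells.

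As a group, the ribosomal protein genes took overlapping shares of the signal in the 3 populations, and the SD within Low was larger than the difference between any means. The 85 members held 6.45%, 7.81% and 7.92% of the signal in High libraries, 6.42%, 8.15% and 6.83% in Medium libraries and 6.84%, 10.5% and 8.94% in Low libraries. The means were 7.39% ± 0.821 in High, 7.14% ± 0.906 in Medium and 8.75% ± 1.82 in Low (SD, n = 3 each). Low replicates 2 and 3 were the highest libraries. Within each replicate number High was below Low, by little for replicate 1 and most for replicate 2.

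**Figure D1:**
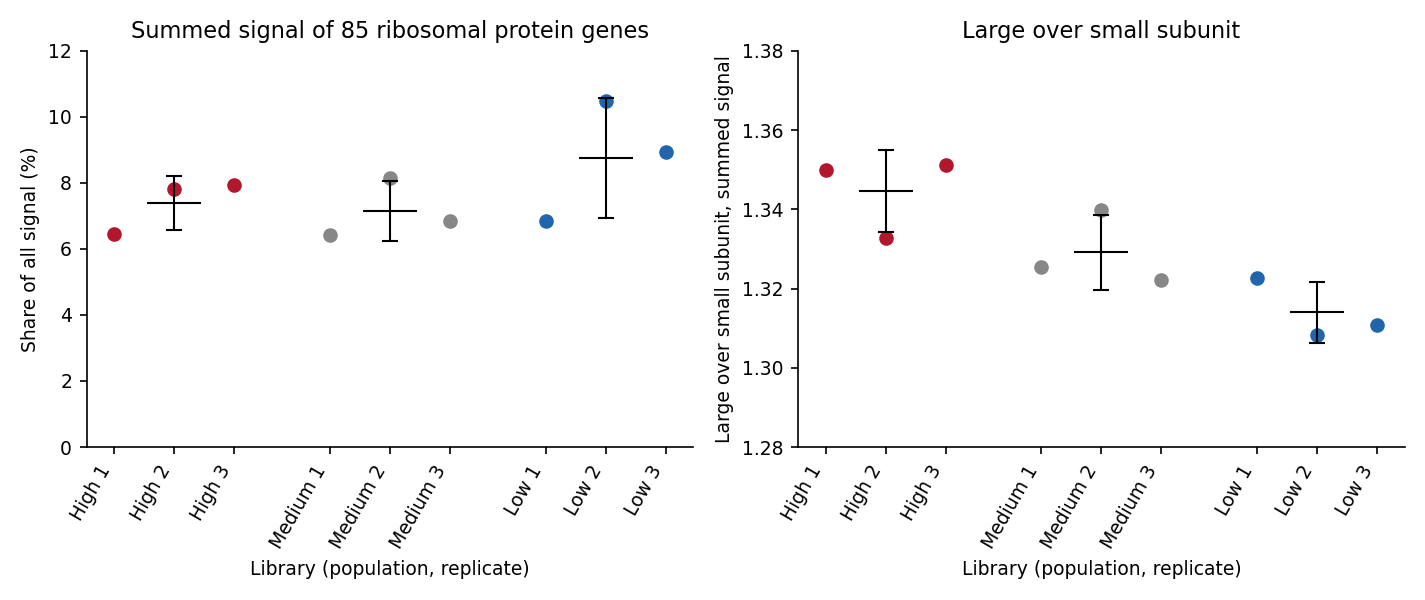
Left, the share of all signal held by the 85 members in each library, in percent; right, the summed signal of the large subunit over that of the small subunit, on an axis that does not start at 0. Points are libraries, and bars are the mean and SD of 3 libraries. The share was 10.5% in Low replicate 2 and 6.42% to 8.94% in the others, while the ratio was higher in every High library than in every Low library.

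The members moved together from library to library. 78 of 85 had their highest signal in Low replicate 2. The lowest signal fell in High replicate 1 for 18 members, in Medium replicate 1 for 32, in Medium replicate 3 for 4 and in Low replicate 1 for 31. Of the 85 members, 77 had a profile over the 9 libraries that correlated with the median member profile at Pearson r above 0.9, with a median r of 0.983; the libraries share their depth and scaling, so this is a description. The profiles of Rps25, Rpl23 and Rps24 were the most like the median, at r = 0.998, 0.998 and 0.997. Those of Rpl7l1, Rpl10l and Rpl3l were the least like it, at 0.024, 0.23 and 0.309, and Rpl39l followed at 0.478. The median coefficient of variation between libraries of a population was 11.2% in High, 13.8% in Medium and 26% in Low.

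**Figure D2:**
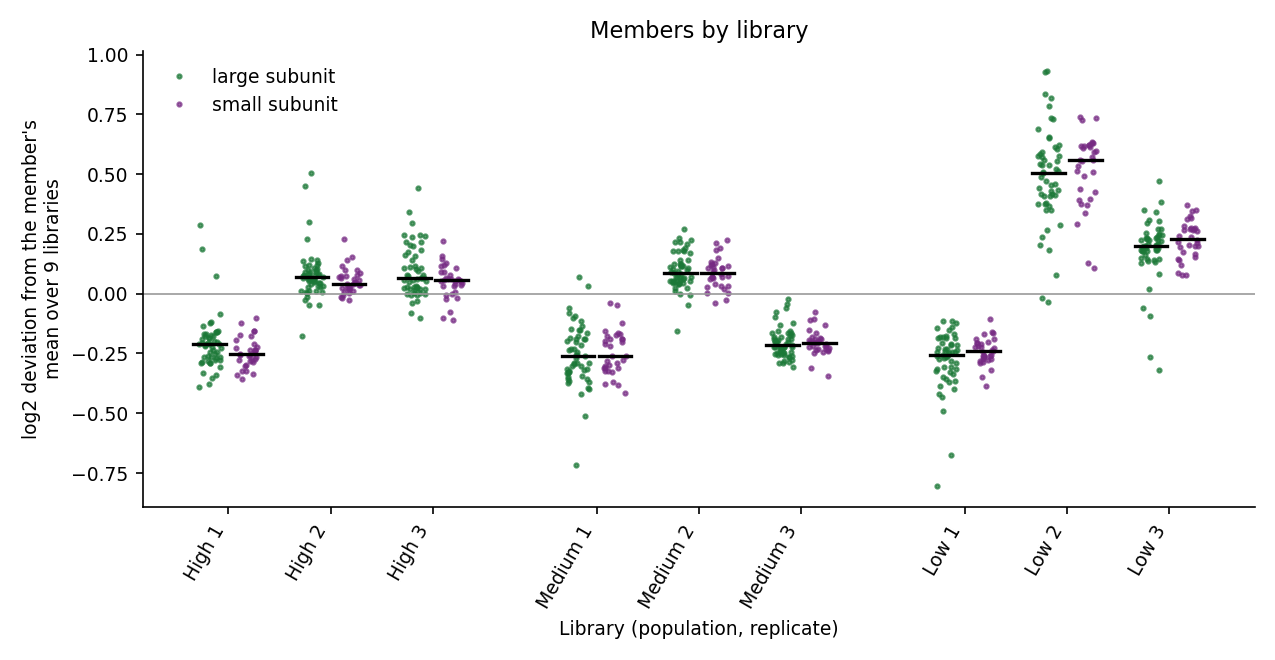
Each member's log2(signal + 1 CPM) minus its own mean over the 9 libraries, by library and subunit; points are genes and black lines medians. The median over all members was 0.52 in Low replicate 2 and -0.26 in Medium replicate 1, and the libraries of each population lie on both sides of 0.

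Transcript length moved with this library pattern. The members' longest annotated transcripts had a median of 1094 nt, against 3288 nt over all genes. In Low replicate 2, the 3281 other genes with short transcripts, of at most 2100 nt, had a median deviation of 0.27, and the 3352 with long ones, of at least 4729.5 nt, one of -0.32. The members' median deviation there was 0.52, and 0.20 after each library's trend with transcript length was taken out. In High replicate 1, Medium replicates 1 and 3 and Low replicate 1, short genes lay low and long genes high, by 0.25 to 0.30 between these sets, and the members' medians lay between -0.26 and -0.21. After the length correction these 4 medians were between -0.11 and -0.06. The same 4 libraries were also the deepest, with 13545200 to 16755566 recovered reads against 11114936 to 12565346 in the rest. What made the libraries differ along transcript length, depth included, was not tested.

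**Figure D3:**
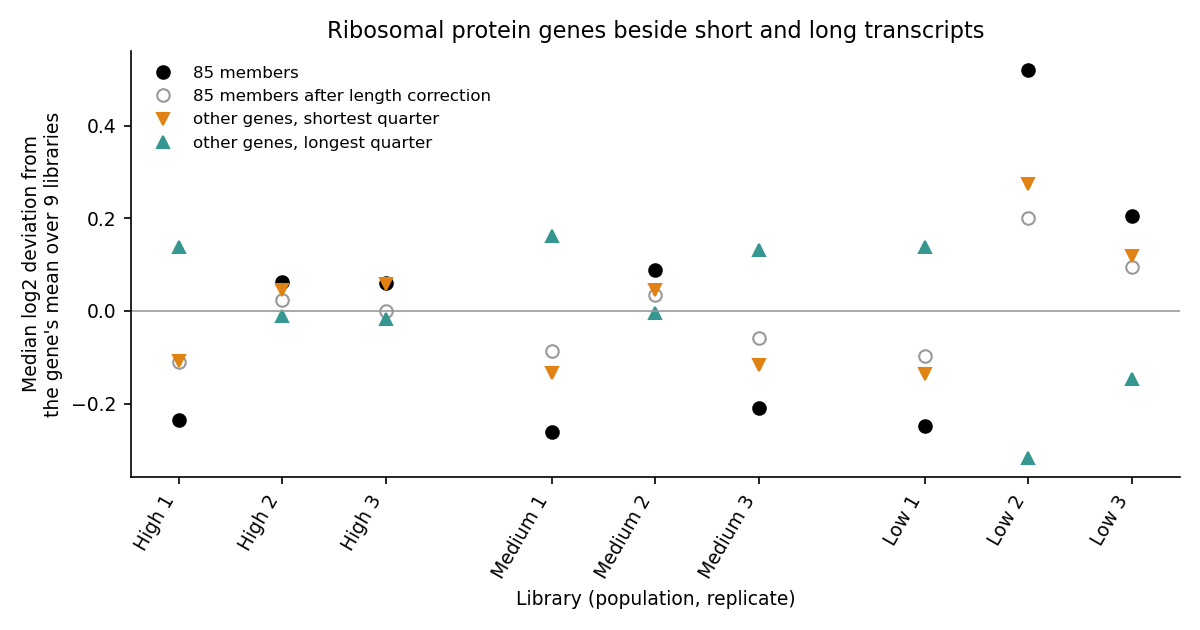
Median log2 deviation per library of the 85 members before and after the length correction, and of the other genes with short (at most 2100 nt) and long (at least 4729.5 nt) transcripts. The members lie on the side of the short genes in all 9 libraries, farthest in Low replicate 2 at 0.52.

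High against Low sets the top of the sort on Myc against its bottom. 1 of 85 members passed the test, Rpl10l, which was higher in High; no other passed in either direction. Over all 13499 genes 28.4% passed (limma, adjusted p under 0.05), 13.8% higher and 14.6% lower, and the members' count is to be read against these shares. At an unadjusted p under 0.05, 3 members stood out, Rpl10l, Rpl39l and Rpl7l1, all higher in High. This was so of 40.5% of all genes, and the 84 uncalled members had adjusted p-values of 0.0858 to 0.965. edgeR and DESeq2 on the recovered reads also called 1 member each, against 27.2% and 28.7% of all genes. Same-numbered libraries met the rule for pairing here. Some with different numbers also correlated above its level of 0.1, and no label states pairing. With a replicate block 5 members passed against 38.8% of all genes: Rpl10l and Rpl39l higher, and Rpl10a, Rps15a and Rps28 lower.

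The fold changes of the uncalled members lay mostly on 1 side of 0. The median log2 fold change of the 85 members was -0.19, and 78 of 85 (91.8%) were negative; over all genes the median was -0.00025 and 6751 of 13499 were negative. For the short other genes the median was -0.08 and 61.1% were negative. Rpl10l lies at one end at 0.68 and Rpl10 at the other at -0.51, with quartiles of the members at -0.27 and -0.11. The median moved with the Low libraries: without Low replicate 2 it was -0.02 with 46 of 85 negative and 2 members called, against 22.6% of all genes. Without Low replicate 1 the median was -0.39 and 46 members were called, against 43.3% of all genes; 45 of them were lower, against 20.6%. After the length correction the median was -0.09 and 7 members were called, against 38.2% of all genes, among them Rpl10l, Rpl39l, Rpl7l1 and Rps4l, which were higher, and Rpl10 and Rpl23a, which were lower. With length correction and block together 20 were called, 4 higher and 16 lower, against 44.6%, and without Low replicates 1 and 2 together 6, against 23.5%, with a median of -0.24 and 80 of 85 negative.

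**Figure D4:**
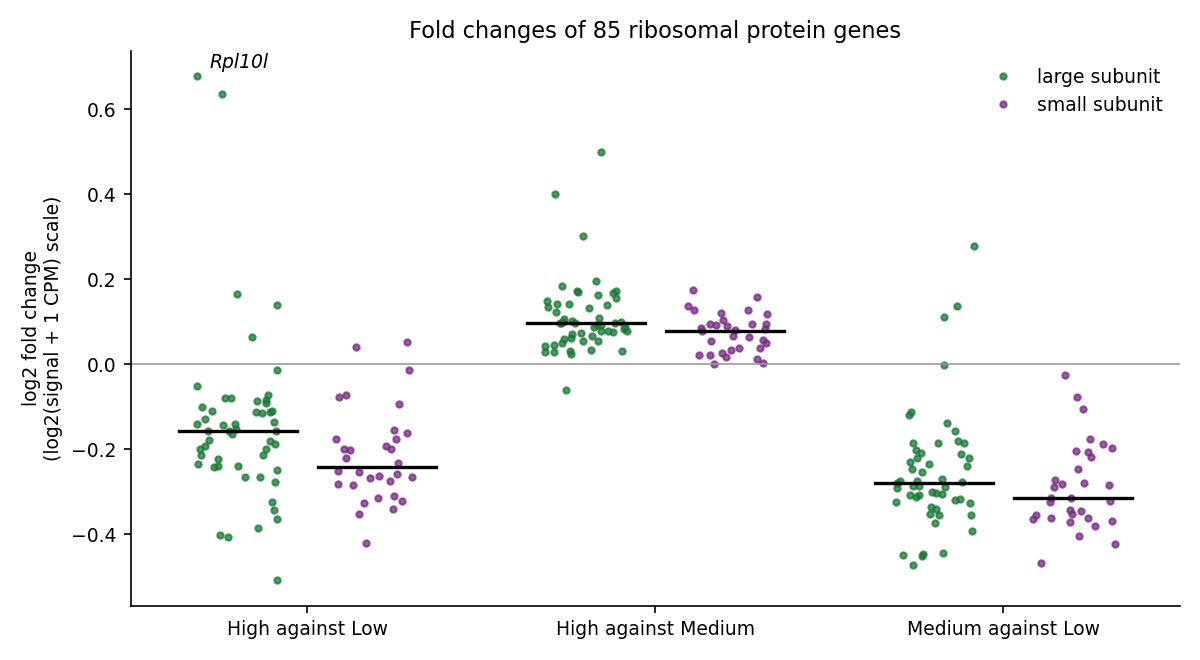
log2 fold changes of the 85 members in the 3 comparisons, by subunit; points are genes, black lines medians, and the named gene passed the test. Medians for High against Low were -0.16 for the large and -0.24 for the small subunit, and Rpl10l stands at 0.68.

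Rpl10l is a retrogene copy of Rpl10 that is known from testis, where in mouse it stands in for its X-linked parent during male meiosis. Its signal was 90.8, 109 and 109 in High libraries, 75.4, 84.8 and 72.8 in Medium libraries and 49.6, 78.7 and 66.3 in Low libraries, from 705 to 1376 reads. Each High library was above each Medium and each Low library, while Medium and Low overlapped. The means were 103 ± 10.5, 77.6 ± 6.31 and 64.9 ± 14.6 (SD, n = 3 each). For High against Low the log2 fold change was 0.68 (SE 0.155, limma adjusted p = 0.0102), and it passed in all 23 alternatives run, with adjusted p from 6.91e-06 to 0.0442 and log2 fold changes of 0.50 to 0.83. The 23 are not independent: the fit without the filter equals the main fit, and fits without a Medium library keep its fold change. For High against Medium the log2 fold change was 0.40 (adjusted p = 0.367) and for Medium against Low 0.28 (adjusted p = 0.248). After the length correction both passed, at 0.31 (adjusted p = 0.0252) and 0.47 (adjusted p = 0.000596).

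Its parent Rpl10, which joins the large subunit late in its assembly, did not share that order. Rpl10 signal was 483, 521 and 550 in High libraries, 518, 608 and 498 in Medium libraries and 463, 1052 and 819 in Low libraries. The Low libraries spanned the whole range of the other 6. The log2 fold change for High against Low was -0.51 (SE 0.243, limma adjusted p = 0.147). Rpl10 passed in 4 of the 23 alternatives, among them without Low replicate 1 (-0.84, adjusted p = 0.000585) and after the length correction (-0.40, adjusted p = 0.0366), while without Low replicate 2 its log2 fold change was -0.25 (adjusted p = 0.42). Most of its transcript is shared with a pseudogene: 92.0% of its windows of 61 nt, the read length, also occur in Rpl10-ps3, which had 780 signal on average against 612 for Rpl10, so the division of reads between them is uncertain.

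The paralog and its parent can be told apart by reads of this length. Over 642 coding bases on GRCm38 (GENCODE M21), Rpl10l on chromosome 12 (66283379 to 66284401, minus strand) and Rpl10 on chromosome X (74270812 to 74273135, plus strand) were 84.7% identical, and the longest identical run was 23 nt. 3.53% of the 61-nt windows of Rpl10l occur in another annotated gene, all in the pseudogene Gm14460. Rpl39l on chromosome 16 (10170226 to 10174911, plus strand) and Rpl39 on chromosome X (37082520 to 37085402, minus strand) differed at 23 of 153 coding bases, with a longest identical run of 38 nt, and no window of Rpl39l occurs elsewhere. The first 61 coding bases of both pairs are shown 5′ to 3′ with the positions that differ within a pair in capitals, 9 for Rpl10l and Rpl10 and 4 for Rpl39l and Rpl39.
Rpl10l: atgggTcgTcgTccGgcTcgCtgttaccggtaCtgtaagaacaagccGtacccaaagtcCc
Rpl10: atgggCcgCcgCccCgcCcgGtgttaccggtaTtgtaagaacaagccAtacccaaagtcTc
Rpl39l: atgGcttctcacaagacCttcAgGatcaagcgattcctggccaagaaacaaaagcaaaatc
Rpl39: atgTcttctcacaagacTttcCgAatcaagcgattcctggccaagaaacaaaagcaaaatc

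Rpl39l, a copy of the exit tunnel protein gene Rpl39 that is also known from testis, was the member nearest to Rpl10l in fold change. Its signal was 12.7, 14.9 and 13.3 in High libraries, 8.12, 11.4 and 8.81 in Medium libraries and 5.49, 13.3 and 8.03 in Low libraries, from 78 to 193 reads. All High libraries exceeded all Medium libraries, and Low replicate 2 lay within the High range. The log2 fold change for High against Low was 0.64 (SE 0.251, limma adjusted p = 0.0858). It passed with the replicate block (adjusted p = 0.0149), after the length correction (0.74, adjusted p = 0.00265) and without Low replicate 2 (0.94, adjusted p = 0.00581), whereas without Low replicate 1 it was 0.36 (adjusted p = 0.166). Its namesake Rpl39 had 350, 441 and 477 in High libraries, 353, 520 and 368 in Medium libraries and 348, 869 and 563 in Low libraries, with a log2 fold change of -0.40 (adjusted p = 0.331), and -0.74 to -0.08 over left-out libraries.

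**Figure D5:**
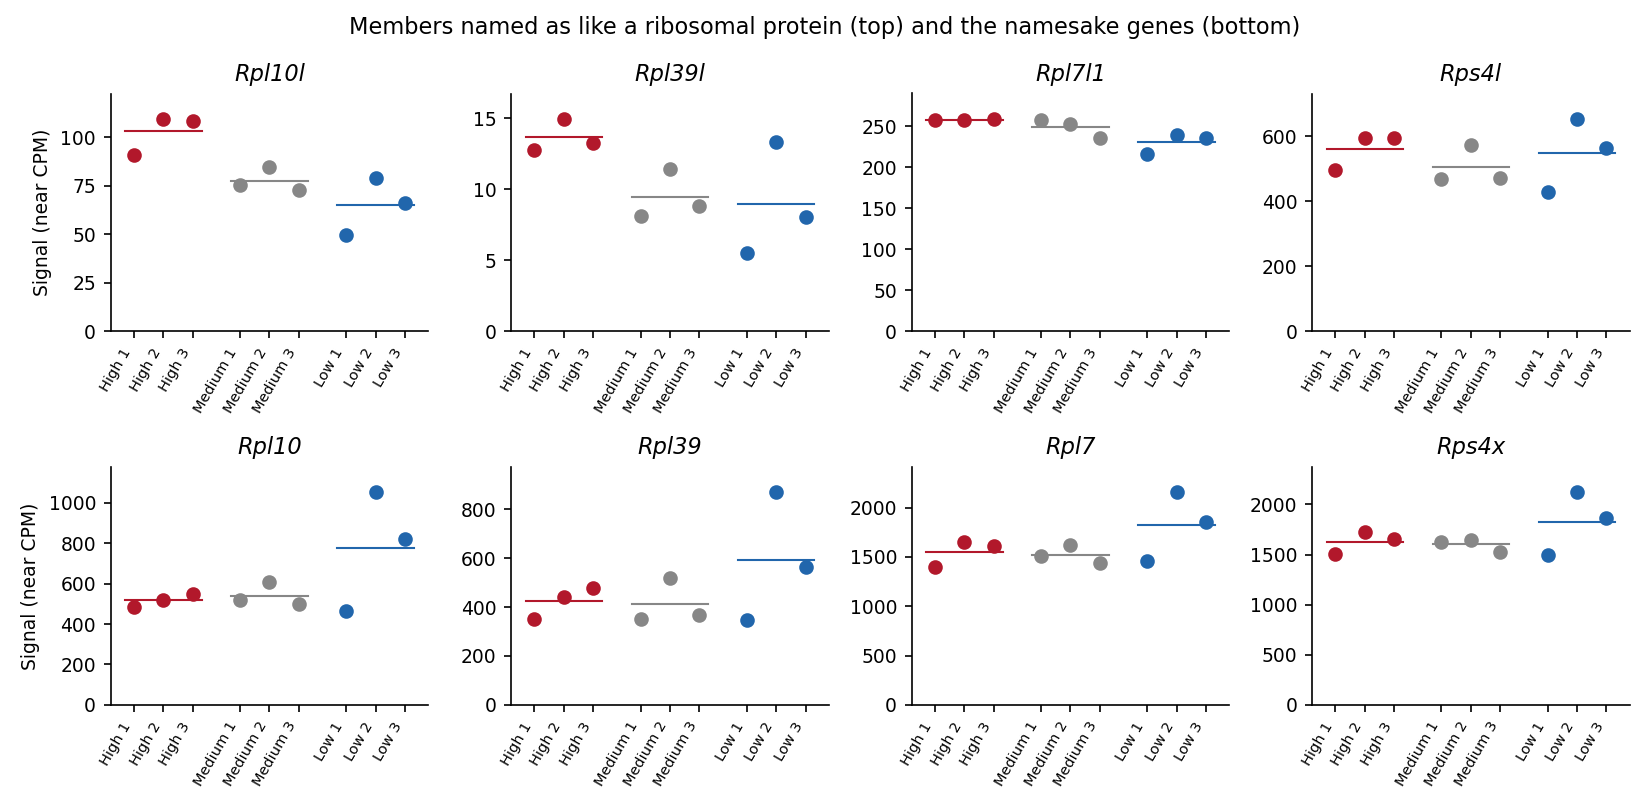
Signal by library of 4 members named as like a ribosomal protein (top) and of the genes they are named after (bottom), each on its own axis from 0; points are libraries and lines population means. Rpl10l is highest in High (90.8 to 109) whereas Rpl10 is highest in Low replicate 2 (1052).

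The other members named as like a ribosomal protein did not pass in the test of High against Low. Rpl7l1, named as like Rpl7, had 258, 258 and 259 in High libraries, 258, 253 and 236 in Medium libraries and 216, 240 and 236 in Low libraries. High was above Low in every library, with a log2 fold change of 0.17 (SE 0.0731, limma adjusted p = 0.12), and after the length correction of 0.21 (adjusted p = 0.0083). Rps4l, a pseudogene like the X-linked Rps4x, had 497, 594 and 595 in High libraries, 468, 575 and 471 in Medium libraries and 428, 654 and 564 in Low libraries, and its log2 fold change was 0.05 (adjusted p = 0.836). Its sign was negative without Low replicate 1, at -0.12. Rpl22l1 and Rpl36al had log2 fold changes of -0.08 each, with adjusted p of 0.752 and 0.763. Rpl3l, the muscle form of Rpl3, averaged 1.59 ± 0.426 in High, 1.34 ± 0.153 in Medium and 1.35 ± 0.145 in Low, from 13 to 24 reads, too few to show a small difference.
Of the 7 members named in this way, 5 had positive fold changes for High against Low, with a median of 0.14. Of the other 78 members 2 were positive, with a median of -0.20. In every library higher in High than in Low stood 2 of the 85 members, Rpl10l and Rpl7l1, against 20.2% of all genes, and in every library lower stood 0, against 21.4%.

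Among the proteins of known position and role in the ribosome, none passed for High against Low, where 28.4% of all genes did. The P stalk, where elongation factors dock, is built from Rplp0, Rplp1 and Rplp2, and its summed signal was 5362, 6640 and 6767 in High libraries, 5448, 6855 and 5563 in Medium libraries and 5557, 8959 and 7425 in Low libraries. The populations overlapped, and the 3 log2 fold changes were -0.20, -0.16 and -0.32. Rpl5 and Rpl11, which bind 5S ribosomal RNA and can inhibit the p53 ligase Mdm2, summed to 497, 624 and 589 in High libraries, 479, 600 and 496 in Medium libraries and 450, 1073 and 732 in Low libraries. Rpl5 had a log2 fold change of 0.06 (adjusted p = 0.78) and Rpl11 one of -0.36 (adjusted p = 0.356).
The exit tunnel proteins Rpl4, Rpl17 and Rpl39 summed to 3401, 3983 and 3918 in High libraries, 3517, 4104 and 3472 in Medium libraries and 3479, 5119 and 4361 in Low libraries, with a median log2 fold change of -0.24. Rps2, Rps3 and Rps23, which line the mRNA entry and the decoding site, had a median of -0.09. Rps6, the substrate of the S6 kinases, had 1138, 1484 and 1417 in High libraries, 1216, 1417 and 1313 in Medium libraries and 1214, 1790 and 1592 in Low libraries, with a log2 fold change of -0.18 (adjusted p = 0.428). Rps27a, made as a fusion with ubiquitin, had 808, 1011 and 1036 in High libraries, 802, 1037 and 782 in Medium libraries and 818, 1659 and 1267 in Low libraries, with a log2 fold change of -0.34 (adjusted p = 0.302). In each of these groups Low replicate 2 was the highest library.
The 10 listed members whose human genes are known from Diamond-Blackfan anaemia, an inherited failure of red cell production, had a median of -0.26 and 0 calls. The 4 X-linked members, Rpl10, Rpl36a, Rpl39 and Rps4x, had a median of -0.28 and 0 calls, and Rpl24 and Rpl38, known from mouse developmental mutants, a median of -0.10 and 0 calls.

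The lowest members for High against Low were alike in their libraries. Rps28 had 412, 506 and 471 in High libraries, 440, 510 and 437 in Medium libraries and 431, 847 and 648 in Low libraries, a log2 fold change of -0.42 (SE 0.206, limma adjusted p = 0.156; adjusted p = 0.0365 with the replicate block). Rpl10a had 472, 566 and 582 in High libraries, 470, 610 and 492 in Medium libraries and 490, 970 and 761 in Low libraries, with a log2 fold change of -0.41 (adjusted p = 0.194; adjusted p = 0.0401 with the block). Rps15a had 603, 768 and 785 in High libraries, 583, 792 and 662 in Medium libraries and 655, 1156 and 940 in Low libraries, with a log2 fold change of -0.32 (adjusted p = 0.263; adjusted p = 0.0341 with the block). In all 3 genes Low replicates 2 and 3 lay above the other 7 libraries, and Low replicate 1 lay among them. Over left-out libraries the log2 fold changes were -0.68 to -0.19 for Rps28, -0.68 to -0.18 for Rpl10a and -0.55 to -0.14 for Rps15a.
Rps7 and Rpsa, which is also known as the laminin receptor precursor, stood at the upper end of the small subunit with Rps4l. Rps7 had 654, 785 and 760 in High libraries, 634, 810 and 662 in Medium libraries and 611, 779 and 752 in Low libraries. Rpsa had 1463, 1730 and 1771 in High libraries, 1498, 1738 and 1509 in Medium libraries and 1515, 1757 and 1729 in Low libraries. In both, Low replicate 2 was within the range of the other populations, unlike in most members. Their log2 fold changes were 0.04 (adjusted p = 0.847), negative without Low replicate 1 at -0.07, and -0.01 (adjusted p = 0.947), positive after the length correction at 0.07.

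The large and the small subunit differed slightly in their balance. The summed signal of the large subunit over that of the small subunit was 1.35, 1.33 and 1.35 in High libraries, 1.33, 1.34 and 1.32 in Medium libraries and 1.32, 1.31 and 1.31 in Low libraries. The means were 1.34 ± 0.0103 in High, 1.33 ± 0.0095 in Medium and 1.31 ± 0.00759 in Low (SD, n = 3 each). Each High library lay above each Low library, and the Medium range overlapped both. The ratio was also taken without the 7 members named as like another ribosomal protein. It was 1.34 ± 0.0102 in High, 1.32 ± 0.0107 in Medium and 1.31 ± 0.00698 in Low, again with no overlap between High and Low. Those 7 members held 0.117% to 0.162% of the signal in a library, so leaving them out could move the ratio little. No p-value is given for a score over the members.
Per library, the median deviation of the large subunit minus that of the small subunit was 0.041, 0.026 and 0.011 in High (log2), -0.00050, -0.00038 and -0.0088 in Medium and -0.013, -0.056 and -0.031 in Low. After the length correction the means were 0.024 ± 0.0058, -0.011 ± 0.012 and -0.034 ± 0.0031, and each High library was above each Low library. The size was small beside the shifts shared by both subunits, which reached 0.52 in Low replicate 2. Small subunit members followed the median member profile slightly more steeply, with a median slope of 1.04 against 0.995 for the large subunit. The part of this in the difference between subunits was not tested. The median log2 fold change for High against Low was -0.16 for the large subunit, with 48 of 53 negative, and -0.24 for the small subunit, with 30 of 32 negative. Under quantile normalisation these medians were -0.16 and -0.18, so that their difference was 0.018 in place of 0.085. For High against Medium the medians were 0.10 for the large and 0.08 for the small subunit. For Medium against Low they were -0.28 for the large and -0.32 for the small subunit, and under quantile normalisation the order turned, at -0.24 and -0.22. The subunits were similar in mRNA length, with a median of 780 nt for the large and 767.5 nt for the small subunit.

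High against Medium asks for differences within the upper part of the sort. 0 of 85 members passed, where 0.407% of all genes did (limma). 1 member had an unadjusted p under 0.05, Rpl10l, against 10.9% of all genes. edgeR and DESeq2 called 0 members, against 0.467% and 1.93% of all genes. The replicate block gave 0 against 1.5%, and leaving out Low replicates 1 and 2 gave 0 against 1.33%. Rpl10l passed after the length correction, alone (2.29% of all genes) and with the block (3.73%). The median log2 fold change was 0.09, with 83 of 85 positive, against a median of 0.01 over all genes, and 0.07 over the short other genes. Negative were 2 of the 85 members, 48.8% of all genes and 32.8% of the short other genes. After the length correction the median was 0.01. Rpl39l and Rpl10l were the highest of the large subunit, at 0.50 (adjusted p = 0.535) and 0.40, and were the 2 members higher in every High than in every Medium library, against 9.34% of all genes; 0 were lower in every library, against 10.8%.
Next was Rpl12, a protein of the stalk base, at 0.30 (adjusted p = 0.754), with 82.9, 99.9 and 115 in High libraries and 56.3, 103 and 87.0 in Medium libraries; without Medium replicate 1 its log2 fold change was 0.06 and without Medium replicate 2 0.48. In the small subunit Rps14, Rps4l and Rps29 were highest, at 0.17, 0.16 and 0.14, and over left-out libraries at 0.05 to 0.35, 0.11 to 0.26 and 0.03 to 0.28. The lowest were Rpl10, Rpl4 and Rpl3 in the large subunit, at -0.06, 0.02 and 0.03, and Rps28 and Rps3a1 were among the lowest in the small subunit, at 0.0019 and 0.01. All had adjusted p of at least 0.367, and the signs of the last 5 named turned under some alternatives, listed below with the alternatives.

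Medium against Low asks for differences within the lower part. 0 of 85 members passed, where 12% of all genes did (limma). 1 member had an unadjusted p under 0.05, against 31.3% of all genes. edgeR and DESeq2 called 0 members, against 11% and 14.9% of all genes. 0 members were higher and 0 lower in every Medium than in every Low library, against 14.5% and 15.1% of all genes. The replicate block called 15 members, against 27.1%, the length correction 2 (Rpl10l and Rpl7l1), against 20.3%, both together 10, against 28.4%, and the fit without Low replicates 1 and 2 called 4, against 11.8%. The median log2 fold change was -0.29, with 82 of 85 negative, against -0.01 over all genes and -0.16 over the short other genes. Of all genes 51.9% were negative, and of the short other genes 73.8%. After the length correction the median was -0.11. Medium against Low and High against Low share the Low libraries. Without Low replicate 1, 62 members were called, against 38% of all genes, all of them lower, against 17.7%. Without Low replicate 2 the median was -0.10, and 0 members were called against 6.83%.
Rpl11, Rpl10a and Rpl10 were lowest in the large subunit, at -0.47, -0.45 and -0.45, and Rps27a, Rps28 and Rps15a in the small subunit, at -0.47, -0.42 and -0.41, with adjusted p of 0.189 to 0.266. Without Low replicate 1 these were -0.83, -0.72 and -0.78 in the large and -0.74, -0.68 and -0.63 in the small subunit, and all passed; without Low replicate 2 they were -0.15, -0.23 and -0.19 and -0.23, -0.20 and -0.22, and none passed. Rpl10l, Rpl39l and Rpl7l1 were highest in the large subunit, at 0.28, 0.14 and 0.11 (0.10 to 0.43, -0.14 to 0.44 and 0.07 to 0.15 over left-out libraries), and Rps7, Rpsa and Rps4l in the small subunit, at -0.03, -0.08 and -0.11.

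Levels between members are compared per length, as mean signal over 9 libraries per kb of a principal transcript. The highest were the stalk proteins Rplp1 and Rplp0 at 3888 and 2662 per kb, then Rpl41 at 2591, Rps18 at 2495 and Rps12 at 2318. The lowest were Rpl3l at 1.04, Rpl39l at 13.3, Rpl5 at 35.9, Rpl12 at 76.9 and Rpl10l at 80.0 per kb. The median member shares 49.7% of its 61-nt windows with other annotated genes, 42 members share over 50%, and 3 share none, Rpl3l and Rpl39l among them. Rpl5 shares 48.3% of its windows with the pseudogene Gm15500, and Rpl12 48.6% with Gm10275. Their levels therefore depend on how the authors' counting placed shared reads. They also depend on the transcript chosen, of 2045 nt for Rpl5 and 1242 nt for Rpl12. The medians over the annotated transcripts of these 2 genes were 844 and 756 nt.
The median log2 fold change for High against Low was -0.18 for the 42 members that share over 50% of windows and -0.20 for the other 43. 22 genes of the table have names with -ps, and they held 0.575% to 0.672% of the signal in High, 0.579% to 0.664% in Medium and 0.616% to 0.840% in Low. Their median log2 fold change for High against Low was -0.16. 1 of the 22 passed, Rps15a-ps7, with 72.5, 58.8 and 52.3 in High libraries, 67.1, 56.6 and 47.8 in Medium libraries and 45.5, 4.03 and 11.3 in Low libraries (log2 fold change of 2.11, adjusted p = 0.0288). Its parent Rps15a was highest in the same 2 Low libraries, replicates 2 and 3.

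Genes known to act on ribosomal proteins or to share their translational control were listed beside the members. Of the ribosomal proteins with other names, Fau and Gnb2l1 had log2 fold changes of -0.48 and -0.17 for High against Low (adjusted p = 0.306 and 0.42), and neither passed. Of 21 measured mRNAs with a TOP tract that encode other proteins, 2 were higher and 0 lower, with a median of -0.10. These were the intermediate filament gene Vim, at 201 ± 14.7 in High and 72.6 ± 2.99 in Low, and the initiation factor gene Eif4b, at 792 ± 20.3 in High and 659 ± 70.4 in Low.
Of 13 genes of mTORC1 and TOP mRNA control, 2 were higher and 2 lower. Larp1, which binds the TOP tract, averaged 525 ± 38.2 in High and 359 ± 76.3 in Low (log2 fold change of 0.57, adjusted p = 0.0155), and the mTORC1 subunit gene Rptor 82.3 ± 8.40 in High and 53.3 ± 14.9 in Low (0.65, adjusted p = 0.0199). The mTORC1 activator gene Rheb (-0.38) and the translation inhibitor gene Pdcd4 (-0.68) were lower in High.
Of 7 chaperones dedicated to ribosomal proteins, 2 were higher, Heatr3 (0.44) and Grwd1 (0.27), and 0 lower. Of 5 measured genes of the p53 sensor of ribosomal stress, Mdm2 and the p53 target Cdkn1a were lower, at 80.7 ± 1.89 in High against 135 ± 6.24 in Low and at 21.4 ± 2.55 in High against 46.8 ± 4.53 in Low (log2 fold changes of -0.73 and -1.09), while the signal of Rpl5 and Rpl11, its ligands, did not pass. The counts in these lists are to be read against the 28.4% of all genes called. All values of the listed genes, Larp1 and Rptor among them, come from the fit without the length correction. The part of transcript length in them was not tested.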

How the data were processed

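Per the submitters' processing notes, the authors ran RSEM, limma, Picard and cutadapt, in no stated order, with build, annotation and strand setting not given in the sources used here. A signal per gene and library was deposited, normalised counts near CPM, in which 100% of values are whole multiples of a read's value (within 0.001 read). Column totals were 953055 to 1026948. From these values limma 3.58.1 (R 4.3.3, variance trend) was run on log2(signal + 1 CPM) over all 9 libraries and 13499 genes, each of which reached 1 CPM in at least 3 libraries, with Benjamini-Hochberg adjustment and a threshold of 0.05. Such fold changes understate those of low genes. edgeR 4.0.16 and DESeq2 1.42.0 were run on the recovered reads.

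The members, lists and rules were chosen with earlier results of these data known. Named members were, per comparison, the 3 highest and 3 lowest log2 fold changes of each subunit, those called without or with the block, the 5 highest and 5 lowest per length, the role groups, and the 3 most and least like the median profile. Transcripts and coordinates came from GENCODE M21 on GRCm38 (99.4% of genes matched), start windows from RefSeq. The length correction subtracts a lowess trend (span 0.3) per library on the length of each gene's longest annotated transcript. That length was 5179 nt for Rps15a and 3706 nt for Rps20, where the medians over their annotated transcripts were 637 and 582 nt. For such members the correction may have the wrong size. In High and Low, deviations of same-numbered libraries correlated at 0.53, 0.26 and 0.18, all above 0.1, so the replicate block was used beside that comparison. High replicate 3 with Low replicate 2 (0.31) and High replicate 2 with Low replicate 3 (0.12) were also above 0.1. The other differently numbered libraries correlated at -0.47 to -0.25. The rule thus cannot show that the libraries were paired, and no label states pairing. The fit was tested on simulated data with known changes for High against Low. There limma recovered 20 of 67 changes of 1.5-fold, 52 of 67 of 2-fold and 64 of 66 of 4-fold, and 6 of 142 calls were false. Smaller changes were not simulated, so few calls among members with small fold changes do not show that they are unchanged. Some members and listed genes are not reported by name here.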

Additional observations from a re-analysis of the deposited data

How the results depend on the processing

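Alternatives covered pseudocount, filter, scaling, variance model, count models, replicate block, length correction, left-out libraries and fits on only the 2 populations compared; leaving out Low replicates 1 and 2 together was added after seeing the data. The members' median log2 fold change kept its sign in all of them: it ranged over left-out libraries from -0.39 to -0.02 for High against Low, 0.03 to 0.20 for High against Medium and -0.50 to -0.10 for Medium against Low. Leaving out 1 library gave 1 to 46 members called for High against Low, 0 for High against Medium and 0 to 62 for Medium against Low. The 46 and 62 were called without Low replicate 1, where 43.3% and 38% of all genes were called.

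With the replicate block 5, 0 and 15 members were called for High against Low, High against Medium and Medium against Low; with the length correction 7, 1 and 2; with both 20, 1 and 10; without Low replicates 1 and 2 together 6, 0 and 4. For High against Medium (0.35, 0.17 and -0.04) and Medium against Low (0.24, 0.43 and -0.11) same-numbered libraries did not meet the rule for pairing, so the block there shares only a number. The difference of the subunit medians for High against Low was 0.018 under quantile normalisation, 0.064 without Low replicates 1 and 2, and 0.062 to 0.086 over single left-out libraries; for Medium against Low it was -0.016 under quantile normalisation and 0.023 to 0.042 over left-out libraries, and for High against Medium 0.00063 to 0.027. Per length of the longest annotated transcript, the members' share was 14.5% in High, 14.3% in Medium and 16.2% in Low. Over left-out libraries the plain share was 7.13% to 7.87%, 6.63% to 7.49% and 7.89% to 9.71%.

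Uncalled members whose fold changes lay near 0 turned sign under some settings, in log2. For High against Low, Rps4l was -0.0083 and Rps7 -0.042 without Low replicates 1 and 2; over left-out libraries Rps4l ranged from -0.12 to 0.19, Rps7 from -0.067 to 0.12 and Rpsa from -0.080 to 0.073. Rpsa was 0.094 under quantile normalisation and 0.074 after the length correction, with or without the block. For High against Medium, left-out libraries gave -0.12 to 0.026 for Rpl10, -0.023 to 0.087 for Rpl4, -0.065 to 0.083 for Rps28 and -0.034 to 0.073 for Rps3a1. Quantile normalisation gave -0.12 for Rpl4, -0.0064 for Rpl3, -0.0028 for Rps28 and -0.026 for Rps3a1, and the length correction, with or without the block, -0.034, -0.014, -0.061 and -0.077. Rescaling to the same total gave -0.021 for Rps28 and -0.011 for Rps3a1. For Medium against Low, left-out libraries gave -0.14 to 0.44 for Rpl39l, -0.13 to 0.043 for Rps7 and -0.27 to 0.031 for Rps4l; Rpsa was 0.067 under quantile normalisation, and the length correction, with or without the block, gave 0.050 for Rpsa, 0.175 for Rps7 and 0.095 for Rps4l. The cause of these turns was not tested. Rpl3l and Rpl39l are limited by depth, with under 100 reads in a library, and all results by 3 libraries a population.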
